A study of Mus musculus with 155 samples.

Results

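The genes described here encode tubulins, actins, the proteins that bind them directly and the motors that move along them. They were chosen by symbol alone: tubulins (Tuba, Tubb, Tubg), actins and actin-related proteins (Actb, Actg, Actr, Arpc), kinesins (Kif, Klc), dynein and dynactin (Dync, Dynl, Dctn), myosins (Myo), stathmins (Stmn), the tubulin acetyltransferase Atat1, and Map1a, Map1b, Map1s, Map2, Map4 and Map7 with its relatives. Tubb3 and Stmn2 were left out by the rule. It found 47 members among the 3422 genes of the deposited table, against 149 protein-coding symbols of this kind in the annotation; a gene of these families that is outside the table was not analysed here. The values come from single cells sorted from the subventricular zone and corpus callosum of adult mice and sequenced by SMART-Seq2, a full-length protocol for polyadenylated RNA.

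The cells fell into 5 populations, all from mice aged 8 to 10 weeks and 5 mice per condition. NB (37 cells) and NBL (27 cells) carried GFP under Gad67 control in the strain CB6-Tg(Gad1-EGFP)G42Zjh/J, so that they were sorted as cells of the GABAergic lineage to which olfactory neuroblasts belong. O (29 cells) and OL (22 cells) were Tomato-positive cells of the strain Olig2-tdTomato TH39Gsat/Mmcd, a reporter of the oligodendrocyte lineage. OligNBL (40 cells) were double-positive cells of a cross of both strains. NB and O came from healthy mice without injection. NBL, OligNBL and OL came from mice demyelinated with lysophosphatidylcholine (LPC), 6 days after the injection. The titles of the OligNBL cells carry a mark for control, while every other label gives them as lesion; the lesion labels were followed. No label names the mouse of a cell, and the labels give both tissues together for every cell. Each population is therefore 1 sample, the cells of a population are not independent replicates, and no difference below has a test. Strain, reporter and population cannot be told apart except within NB and NBL and within O and OL. Within those pairs the healthy mice had no injection, and the cell numbers run in separate blocks by population. Demyelination, injection and order by cell number therefore cannot be told apart there.

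Microtubules are hollow polymers of alpha and beta tubulin, and actin filaments are polymers of actin. Microtubule-associated proteins stabilise or bundle microtubules, stathmins bind free tubulin and promote disassembly, kinesins and dynein carry cargo along microtubules, and the Arp2/3 complex starts branched actin networks. Migrating neuroblasts pull the nucleus forward along microtubules behind a leading process, and oligodendrocytes extend many processes filled with microtubules and remodel actin while they wrap axons. Cells of different types use different tubulin isotypes, which differ mostly at the carboxy-terminal tail.

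The pairs of members below are shown because the results below set these members of a family side by side. Tubb2a and Tubb2b differ at few bases, as printed, while Tubb4a and Tubb5 differ at many. The sequences are coding bases from GENCODE vM21 transcripts on GRCm38, written 5′ to 3′, and capitals mark the bases that differ from the partner at the same position of the coding sequence. The first lines give the last 60 coding bases, which encode the variable tail of the tubulins, with the stop codon. Read in frame, the bases that differ between Tubb2a and Tubb2b in this stretch encode the same amino acids.
Tubb2a: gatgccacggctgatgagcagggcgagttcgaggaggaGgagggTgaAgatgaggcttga
Tubb2b: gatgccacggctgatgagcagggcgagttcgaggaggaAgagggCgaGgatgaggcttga
Tubb4a: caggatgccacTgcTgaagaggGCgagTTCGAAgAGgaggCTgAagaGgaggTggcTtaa
Tubb5: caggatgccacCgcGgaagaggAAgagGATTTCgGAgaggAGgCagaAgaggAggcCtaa
The last lines give the first 60 coding bases of the cytoplasmic actins, which encode the amino terminus where they differ most.
Actb: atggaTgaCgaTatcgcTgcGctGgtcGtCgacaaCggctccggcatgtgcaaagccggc
Actg1: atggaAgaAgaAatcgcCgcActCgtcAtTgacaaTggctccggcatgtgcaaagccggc

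Over the whole coding sequence Tubb2a (chromosome 13, 34074274 to 34078007, minus strand) and Tubb2b (chromosome 13, 34126748 to 34130466, minus strand) differ at 47 of 1338 bases. Tubb4a (chromosome 17, 57080066 to 57087782, minus strand) and Tubb5 (chromosome 17, 35833921 to 35838306, minus strand) differ at 220 of 1335 bases, 18 of them in the stretch printed. Actb (chromosome 5, 142903115 to 142906754, minus strand) and Actg1 (chromosome 11, 120345690 to 120348542, minus strand) are identical at 88.7% of 1128 bases. Of the 47 members, 12 shared over 20% of their 31-base words with transcripts of other genes: Tuba1a, Tuba1b, Tuba1c, Tubb2a, Tubb2b, Actb, Actg1, Actr3, Stmn1, Dynlt1b, Dynlt1c and Dynlt1f. The split of reads between these and their copies is uncertain. Tubb4a shared 1.87% and Tubb5 4.47%, and Map1b, Map2, Map7d1, Stmn4, Kif5c and Klc1 under 5%.

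The deposited values are a normalized signal that is not divided by gene length. The level of a gene is the mean over cells of log2(signal + 1), with the SD between cells. Each level is compared with that of the same gene in other populations, not with other genes. A gene is called present in a cell when it is among that cell's 500 highest genes. Presence thus ranks genes against each other with no correction for length. Counts of members present and of pairs carry that limit. Presence is given for 35 NB cells, since 2 held fewer than 500 genes above their lowest value. Shares of cells carry exact Clopper-Pearson 95% intervals, which cover counting error only. To show how far a level depended on which cells were taken, the cells of each population were ordered by the number in their titles and divided into 3 nearly equal parts. Populations are called apart for a gene when the 3 part means of one lie all above those of the other. A difference of levels of at least 2 is called past the size rule.

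The labels were checked on marker genes. The 12 mature oligodendrocyte markers measured had a median level of 7.80 in OL and 4.81 in O, against 0.03 to 0.09 in the other populations. The 16 neuroblast markers measured had a median level of 1.38 in NB, 2.24 in NBL and 3.05 in OligNBL, against 0.61 in OL and 0.85 in O. The 6 oligodendrocyte progenitor markers measured had a median level of 3.20 in OligNBL and at most 1.25 elsewhere. Pdgfra, Cspg4, Ptprz1 and Lhfpl3 were highest in OligNBL, but Sox10 and Olig1 were not. Sox10 stood at 0.58 in OligNBL, 4.47 in OL and 1.94 in O. Olig1 stood at 0.90 in OligNBL, 1.52 in NBL and 1.09 in OL. EGFP had a level of 5.19 in NB, 2.42 in NBL, 3.48 in OligNBL, 0.36 in OL and 0.43 in O, while TdTomato stood at 0.18 to 1.14 in all 5 populations and separated none of them. Of other cell types, only S100b, Pecam1 and Snap25 were measured: Pecam1, an endothelial marker, stood at 6.54 to 10.53 in every population, and Snap25, a marker of mature neurons, at 6.20 in O and 0.23 to 2.02 in the others. Their part in the results below was not tested. Median genes detected per cell ran from 950.5 in OL to 1397 in OligNBL.

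The members were common among the highest genes of these cells. A cell held a median of 14 members among its 500 highest genes in NB (range 11 to 17) and OligNBL (9 to 20), 12 in NBL (8 to 18), and 10 in OL (6 to 14) and O (7 to 14). The 500 genes are 14.6% of the table, so 6.87 of 47 would be an even share. Gene length enters this ranking and was not corrected for. OligNBL was the population of highest level for 18 members, or 38.3%, against 26.8% of all genes. NB was highest for 13 (27.7% of members, 19.5% of all genes), OL and O for 6 each (12.8%, against 16.7% and 19.7% of all genes) and NBL for 4 (8.51%, against 17.3%). Stricter still, the highest population was apart from all 4 others for 7 of 47 members, or 14.9%, against 16.9% of all genes: Dync1li2, Kif5c, Klc1 and Tubb2a in OligNBL, Map2 in NB, Map7d1 in NBL and Actr10 in O. That share is near the background of the table. The 9 members Actr1b, Dctn3, Dynlt1b, Dynlt1c, Dynlt1f, Kif21b, Klc4, Myo18a and Stmn3 stayed under level 2 in every population.

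**Figure D1:**
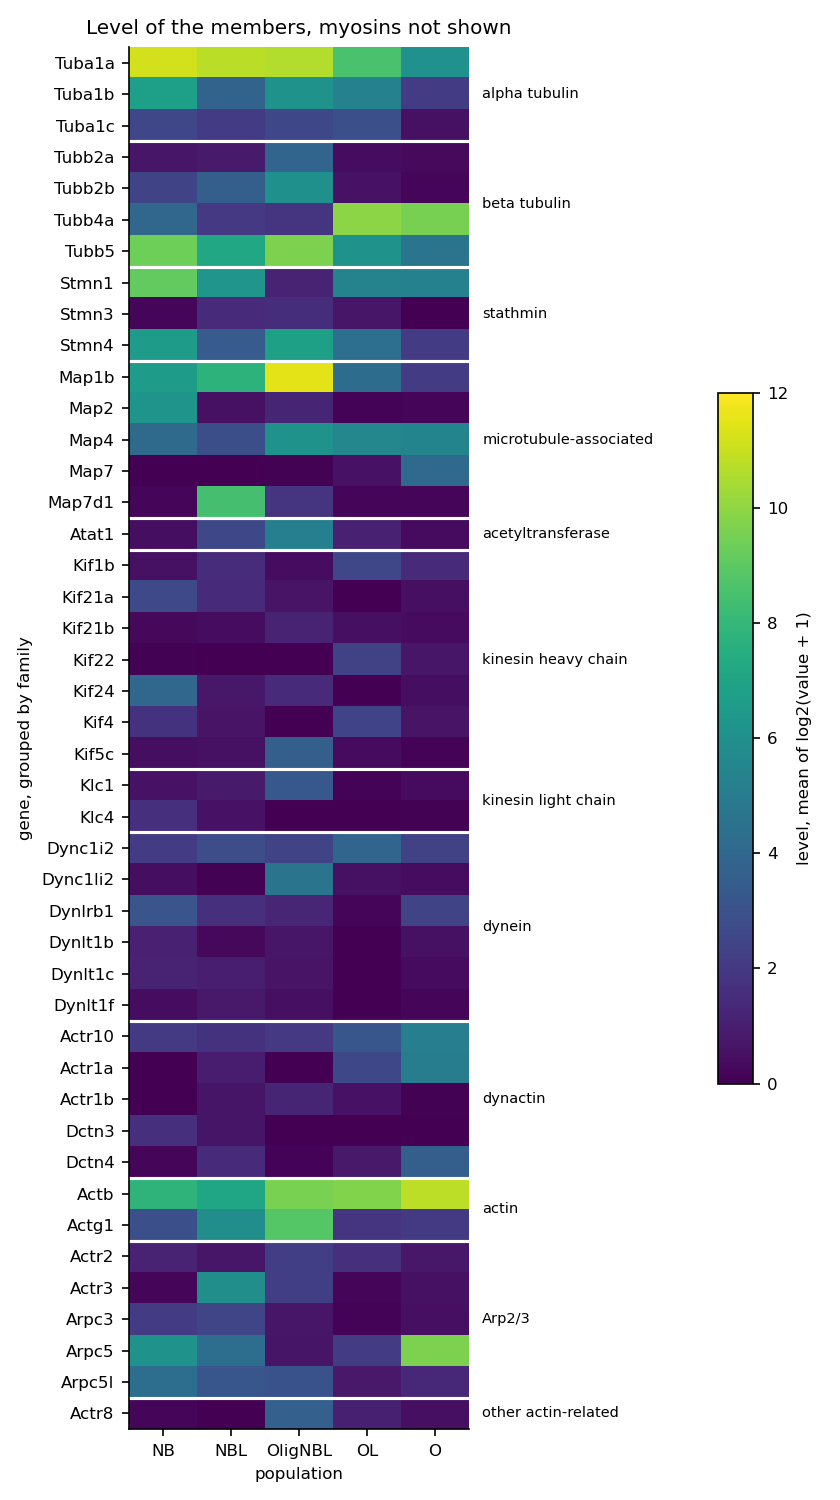
Level (colour, mean of log2(signal + 1) over cells) of the members other than myosins (vertical axis, grouped by family) in the 5 populations (horizontal axis). Tuba1a was at 6.07 or more in every population, while Tubb4a was high in OL and O, Map7d1 in NBL, Map2 in NB and Dync1li2 in OligNBL.

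Among the beta tubulins, Tubb4a stood highest in the Tomato populations OL and O, and Tubb2a and Tubb2b in the double-positive OligNBL. Tubb4a, the beta tubulin known from myelinating oligodendrocytes, had a level of 9.89 ± 4.34 (SD, n = 22 cells) in OL and 9.56 ± 3.87 (n = 29) in O. It stood at 3.97 ± 5.49 (n = 37) in NB, 1.97 ± 2.13 (n = 27) in NBL and 1.81 ± 2.61 (n = 40) in OligNBL. The lowest, median and highest O cell had log2 values of 4.83, 10.81 and 17.50, and the same cells of OligNBL had 0.00, 1.24 and 12.38. Single NB cells reached 20.19, so the populations overlapped, yet Tubb4a was present in 29 of 29 O cells (exact interval 88.1% to 100%) and 21 of 22 OL cells, against 5 of 40 OligNBL cells (4.2% to 26.8%). The levels of OL and O did not differ beyond their spread.

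Tubb2b and Tubb2a, beta tubulins known from developing neurons, had the reverse order. Tubb2b had a level of 6.04 ± 4.63 in OligNBL, 3.61 ± 3.49 in NBL, 2.46 ± 3.32 in NB, 0.60 ± 1.07 in OL and 0.21 ± 0.64 in O, and it was present in 27 of 40, 14 of 27, 13 of 35, 1 of 22 and 0 of 29 cells. O was the lowest population for Tubb2b and was apart from all the others by its part means. Tubb2a had a level of 3.90 ± 3.73 in OligNBL (lowest cell 0.00, median 3.48, highest 14.98; present in 18 of 40) and at most 0.87 in the other populations, where it was present in 4 cells in all. OligNBL was thus the population in which both Tubb2 genes were present in the same cell most often, in 13 of 40 cells, against 1 cell each in NB and NBL and none in OL and O. Both genes share much of the sequence printed above, and the split of reads between them was not tested.

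Tubb5, a beta tubulin made in most cells, had levels of 9.61 in OligNBL, 9.33 in NB, 7.17 in NBL, 6.12 in OL and 4.61 in O, with SDs of 3.42 to 4.69. Tubb5 stood higher in the GFP-positive populations OligNBL, NB and NBL than in OL and O, though its order was not that of EGFP. Neighbouring populations in the Tubb5 order differed by less than their spread. Tuba1a, the main alpha tubulin of migrating neurons, had a level of 11.17 ± 3.32 in NB, 10.75 ± 3.33 in NBL and 10.64 ± 3.71 in OligNBL, which did not differ beyond their spread. It stood lower in OL (8.58 ± 3.82) and O (6.07 ± 4.03). It was present in all NB and OligNBL cells, in 26 of 27 NBL cells, in 19 of 22 OL cells and in 20 of 29 O cells. Tuba1b, an alpha tubulin found in most tissues, had a level of 6.77 ± 5.06 in NB, 6.16 ± 4.30 in OligNBL, 5.28 ± 4.26 in OL, 3.82 ± 3.25 in NBL and 2.07 ± 2.35 in O. No cell in any population had Tuba1b among its highest genes without Tuba1a. In NB and OligNBL no other outcome was possible, since every cell had Tuba1a, and in NBL almost none was. Other transcripts hold 97.7% of the coding words of Tuba1a and 97.2% of those of Tuba1b, so the split of their reads is uncertain. Tuba1c, a further alpha tubulin, stood between 2.10 and 2.94 in every population but O, where it was at 0.55.

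**Figure D2:**
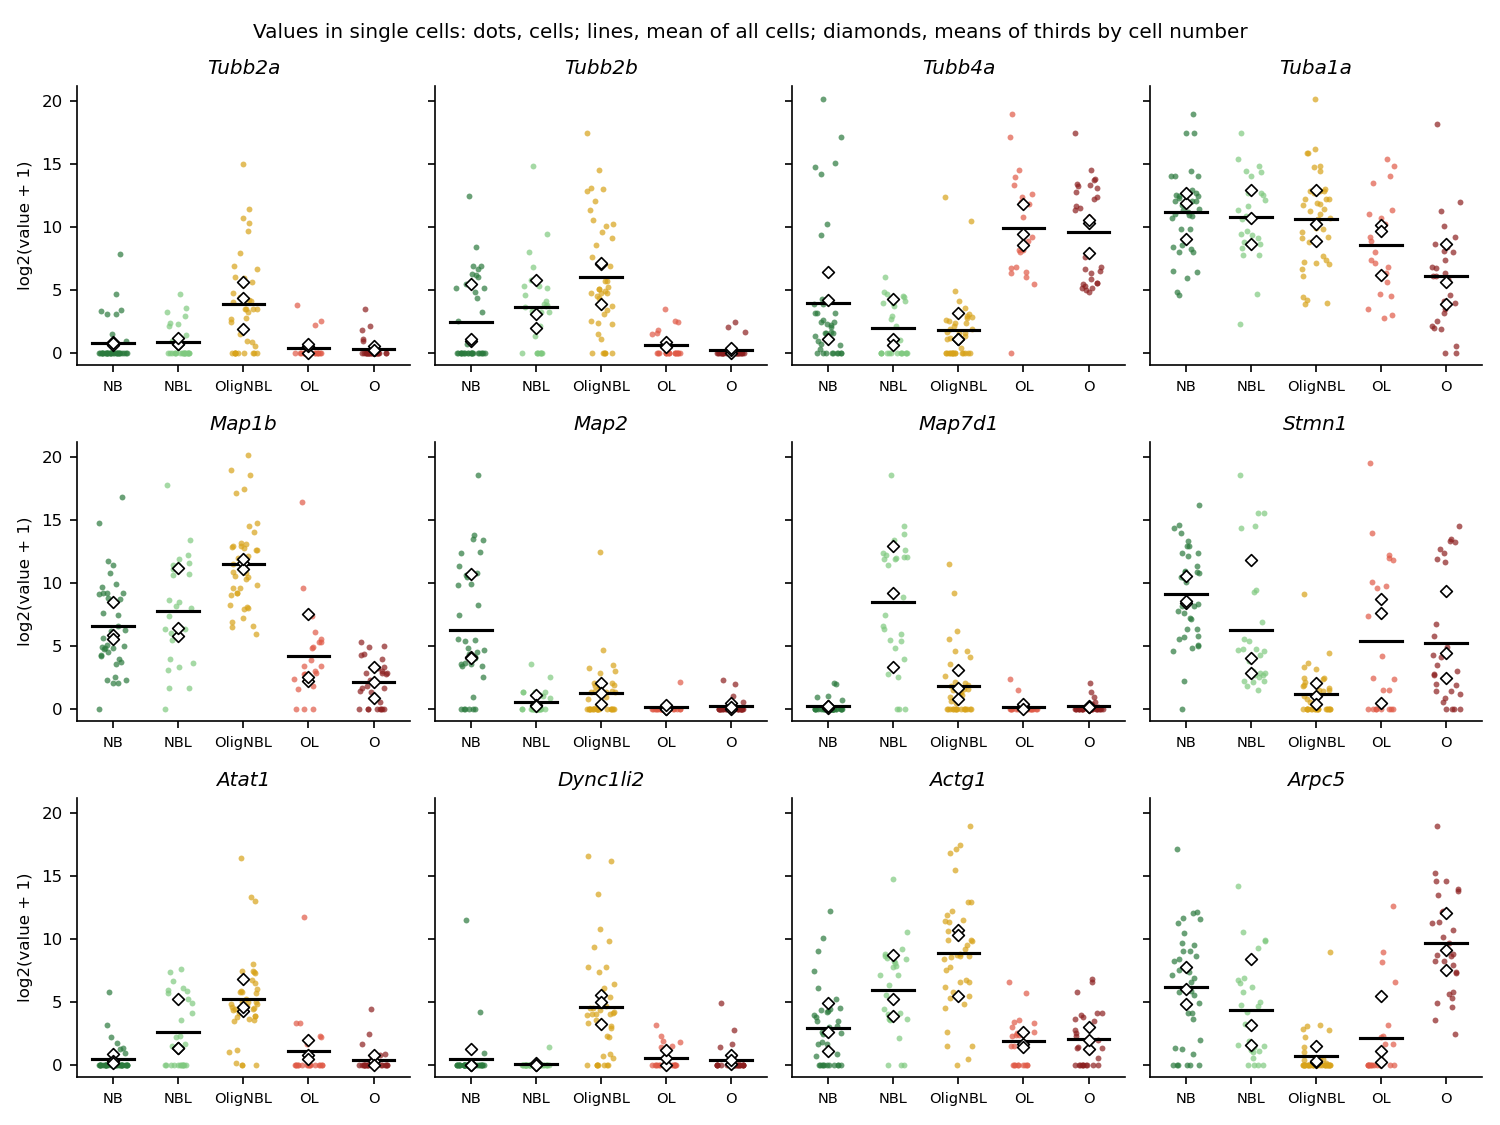
Log2(signal + 1) of 12 members in every cell (dots), with the mean of each population (line) and the means of its 3 parts by cell number (diamonds). Tubb4a lay high in OL and O, Tubb2a, Dync1li2 and Map1b in OligNBL, Map2 in NB and Map7d1 in NBL, and single cells spread over more than 10 log2 units within many populations.

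The stathmins were not ordered alike. Stmn1, the founding stathmin, which is high in immature neurons and dividing cells, had a level of 9.12 ± 3.74 in NB (lowest 0.00, median 10.09, highest 16.20), 6.24 ± 5.06 in NBL and 1.18 ± 1.77 in OligNBL (lowest 0.00, median 0.38, highest 9.09). It was present in 34 of 35 NB cells and in 3 of 40 OligNBL cells (1.6% to 20.4%). OligNBL was the population of lowest Stmn1, under OL (5.37 ± 5.97) and O (5.26 ± 5.10). The part means of Stmn1 were 2.08, 1.02 and 0.36 in OligNBL and 0.49, 7.59 and 8.74 in OL, so OligNBL and OL were not apart. Stmn4, a stathmin found mainly in neurons, had instead a level of 6.81 ± 3.60 in OligNBL and 6.59 ± 2.98 in NB, against 4.40 ± 3.89 in OL, 3.45 ± 2.95 in NBL and 2.08 ± 2.44 in O. It was present in 35 of 35 NB cells and 33 of 40 OligNBL cells. In OligNBL 30 of 40 cells thus held Stmn4 without Stmn1 among their highest genes, while in NB 34 of 35 held both. Stmn3, a further neuronal stathmin, was at 1.59 or less throughout.

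The microtubule-associated proteins differed in the population where they stood highest. Map1b, which binds microtubules in growing axons and leading processes, had log2 values from 5.92 to 20.19 (median 11.16) in OligNBL and was present in 40 of 40 cells (91.2% to 100%). Its levels stood in the order OligNBL (11.52 ± 3.54), NBL (7.78 ± 4.23), NB (6.59 ± 3.71), OL (4.23 ± 3.62) and O (2.15 ± 1.75), in which no neighbours differed by more than both their SDs. The highest O cell was at 5.27, so every OligNBL cell lay above every O cell for this gene. Map2, the dendritic microtubule-associated protein, stood highest in NB: its level was 6.23 ± 4.85 (lowest 0.00, median 4.69, highest 18.54) and it was present in 27 of 35 cells (59.9% to 89.6%). Its level elsewhere was 1.24 in OligNBL, 0.53 in NBL, 0.20 in O and 0.10 in OL, with 3 cells in which it was present.

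Map7d1, a microtubule binder that recruits kinesin-1, stood highest in NBL, with a level of 8.47 ± 5.04 (lowest 0.00, median 8.88, highest 18.54) and presence in 22 of 27 cells (61.9% to 93.7%). It had a level of 1.84 ± 2.61 in OligNBL and 0.18 in NB, OL and O, where it was present in no cell. Its part means in NBL were 3.28, 12.94 and 9.21, all above every other population but uneven among themselves. Top2a, a topoisomerase of dividing cells, was likewise uneven in NBL, with part means of 0.42, 9.81 and 2.37. Its level was at most 0.29 in the other populations. Birc5, the other marker of division measured, went the other way. It was lowest in NBL, at 0.13 with part means of 0.38, 0.00 and 0.00. The part of either gene in the Map7d1 values was not tested. Map7, the closest relative of Map7d1, was at 4.12 ± 4.55 in O (present in 12 of 29 cells) and at 0.58 or less elsewhere. Map4, the microtubule-associated protein of most cells, was measured in every population: its level was 6.14 in OligNBL, 5.57 in OL, 5.39 in O, 4.17 in NB and 2.86 in NBL, with SDs of 3.74 to 4.81. Atat1, which acetylates alpha tubulin inside the microtubule, had a level of 5.19 ± 3.37 in OligNBL, 2.61 ± 2.81 in NBL, 1.12 ± 2.63 in OL, 0.44 ± 1.16 in NB and 0.37 ± 0.97 in O. It was present in 32 of 40 OligNBL cells (64.4% to 90.9%), 11 of 27 NBL cells and 4 cells of the other populations together.

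Of the motors, Kif5c, Klc1 and Dync1li2 stood highest in OligNBL. Kif5c, a kinesin-1 heavy chain of neurons, had a level of 3.62 ± 4.40 there and at most 0.55 in the others. Klc1, the kinesin-1 light chain that binds cargo, had a level of 3.30 ± 3.03 in OligNBL and at most 0.87 in the others. Both were present in 6 of 40 OligNBL cells, Kif5c alone in 11 and Klc1 alone in 10, and in no cell of another population were both present. Klc4, another light chain, was instead at 1.66 in NB and 0.00 in OligNBL. Dync1li2, a light intermediate chain that links dynein to its cargo, had a level of 4.62 ± 4.30 in OligNBL (lowest 0.00, median 4.05, highest 16.62; present in 23 of 40 cells, 40.9% to 73%) and 0.05 to 0.54 elsewhere, where it was present in 2 cells. Dync1i2, the intermediate chain, did not share this pattern and stood at 2.12 to 3.92 in all populations, highest in OL. Its part means in OL were 7.81, 1.65 and 1.73, so its place in OL rests on the first part of the cells. The light chains Dynlt1b, Dynlt1c and Dynlt1f were listed at 0 in every OL cell, and their transcripts are so alike that they cannot be told apart firmly.

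The other kinesins stood highest in NB or OL, except Kif21b, which was at 1.22 or less in every population. Kif24, a kinesin that restrains cilium formation, had a level of 3.97 ± 4.55 in NB (present in 18 of 35 cells), 1.47 in OligNBL, 0.79 in NBL, 0.46 in O and 0.00 in OL. Kif21a, a kinesin that limits microtubule growth, was at 2.63 ± 3.31 in NB and was listed at 0 in every OL cell. Kif22 and Kif4, both kinesins that bind chromosomes in mitosis, were at 2.37 ± 3.65 and 2.43 ± 5.30 in OL, and at 0.00 and 0.03 in OligNBL. Kif22 was present in 8 of 22 OL cells, Kif4 in 3 others and both in none. With so few cells, the lack of shared ones does not show that the genes keep to separate cells. In OL the part means were 0.00, 4.29 and 3.16 for Kif22, and 0.79, 6.38 and 0.36 for Kif4. Of the markers of division measured, Birc5 had part means of 2.46, 2.28 and 0.00 in OL. Top2a went the other way and was lowest in OL, at 0.17 with part means of 0.00, 0.53 and 0.00. The part of either gene in the values of these kinesins was not tested. Kif4 was also at 1.74 ± 2.29 in NB, where it was present in 9 of 35 cells. Kif1b, a kinesin needed for axonal transport and myelination, was at 2.54 ± 3.02 in OL, 1.55 in NBL, 1.45 in O, 0.55 in NB and 0.39 in OligNBL.

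Dynactin, the adaptor of dynein, had its measured subunits highest in O for 3 of 5, beside 19.7% of all genes highest there. Actr10, which caps the pointed end of its filament, was at 5.12 ± 1.09 in O with a range of 3.28 to 8.21 and was present in 27 of 29 cells. It was at 3.23 ± 2.0 in OL and 1.77 to 2.04 in the GFP and double-positive populations, and O was apart from all of them. Actr1a, the actin-related protein that forms that filament, was at 5.09 ± 4.25 in O, 2.61 ± 3.68 in OL and 0.95 ± 1.25 in NBL, and the highest NB or OligNBL cell was at 0.07. Its near copy Actr1b was present in 6 of 40 OligNBL cells and in at most 1 cell of each other population. Dctn4, a subunit at the pointed end, was at 3.63 ± 4.66 in O and at most 1.42 elsewhere, and Dctn3, a subunit of the shoulder, was at 1.66 or less. For Actr1a and Dctn4, O was not apart from all other populations. Snap25 was also highest in O, as given above, and its part in the O values was not tested.

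The cytoplasmic actins had different orders. Actb, beta actin, was high in every population: 10.78 ± 3.82 in O, 9.73 ± 3.15 in OL, 9.57 ± 3.80 in OligNBL, 7.82 ± 4.25 in NB and 7.08 ± 3.53 in NBL, and neighbours in that order did not differ beyond their spread. Actg1, gamma actin, had a level of 8.86 ± 4.60 in OligNBL (median cell 8.68, highest 18.99) and 5.92 ± 3.47 in NBL, against 2.91 ± 3.06 in NB, 2.05 ± 2.10 in O and 1.85 ± 1.94 in OL. Both actins were present in 33 of 40 OligNBL cells and 20 of 27 NBL cells, while Actb alone was present in 21 of 29 O cells, 19 of 22 OL cells and 22 of 35 NB cells. Actg1 shares 57.1% of its 31-base words with other transcripts, so its level carries that uncertainty.

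Within the Arp2/3 complex, the paralogous subunits Arpc5 and Arpc5l, of which a complex holds either one, were distributed unlike each other. Arpc5 had a level of 9.64 ± 3.99 in O (lowest 2.45, median 8.79, highest 18.99), 6.17 ± 4.39 in NB, 4.35 ± 3.90 in NBL, 2.15 ± 3.61 in OL and 0.67 ± 1.65 in OligNBL. It was present in 28 of 29 O cells (82.2% to 99.9%) and in 1 of 40 OligNBL cells (0.1% to 13.2%). Arpc5l was at 4.34 in NB, 3.20 in NBL, 3.02 in OligNBL, 1.32 in O and 0.81 in OL. Only Arpc5 was present in 27 of 29 O cells, and only Arpc5l in 15 of 40 OligNBL cells, whereas NB and NBL held both in 11 of 35 and 10 of 27 cells. Actr3, one of the actin-related proteins at the core of the complex, was at 5.92 ± 6.12 in NBL (part means 1.62, 11.55 and 4.59), 2.21 ± 3.38 in OligNBL and at most 0.54 elsewhere; 63.6% of its words occur in other transcripts. Its partner Actr2 was at 0.74 to 2.24 in all populations and Arpc3 at 0.09 to 2.49. Actr8 matches the rule by its name, although it is a subunit of the INO80 chromatin remodeller: it was at 3.69 ± 3.44 in OligNBL and at most 1.03 elsewhere. Of the myosins, Myo7a, known from sensory hair cells, was at 1.12 to 3.06 and Myo18a, an unconventional myosin, at 0.54 to 1.60.

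**Figure D3:**
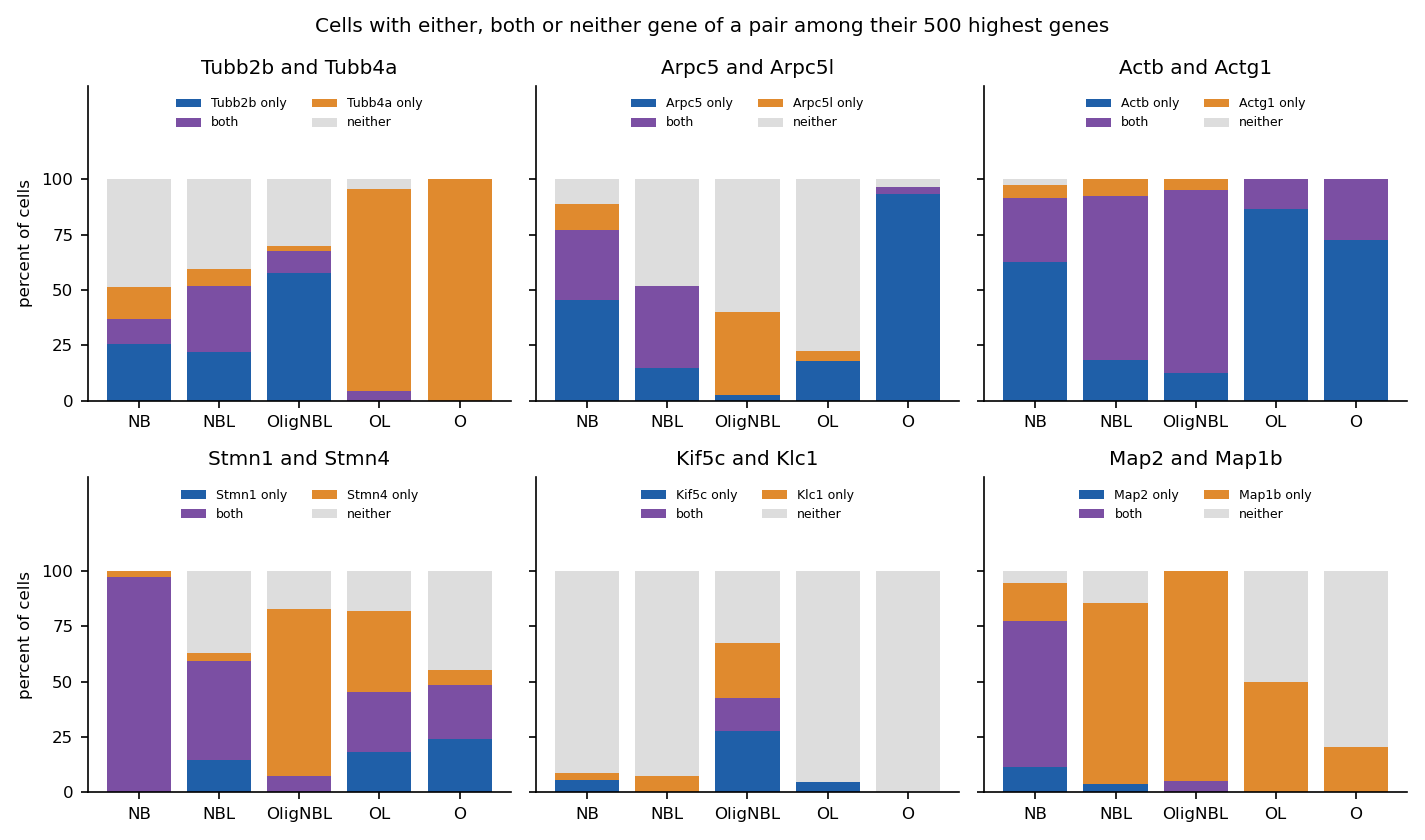
Percent of cells (vertical axis) in each population that had one, both or neither gene of 6 pairs among their 500 highest genes. Tubb4a without Tubb2b filled OL and O, Arpc5 without Arpc5l filled O, and Stmn4 without Stmn1 and Map1b without Map2 filled most of OligNBL.

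The comparison of NBL with NB asks how GFP cells of a demyelinated brain differ from those of a healthy, uninjected one in the same strain. Map7d1 was 8.29 higher in NBL, Actr3 5.69, Actg1 3.01 and Atat1 2.17. These 4 of 47 members, or 8.51%, were past the size rule, against 9.76% of all genes. All but Actg1 had the populations apart, 3 members, or 6.38%, against 5.93% of all genes. Lower in NBL were Map2 (by -5.70), Kif24 (-3.18), Stmn4 (-3.14), Tuba1b (-2.95), Stmn1 (-2.88) and Tubb5 (-2.16), 6 members, or 12.8%, against 8.39%. Map2, Kif24 and Stmn4 had the populations apart (3 members, or 6.38%, against 4.38% of all genes). The median difference over the members was -0.23 and over all genes -0.00. Of these 10 differences, those of Map7d1, Map2 and Stmn4 exceeded the SD between cells of both populations. The parts of NBL differed: without the last part of each population by cell number only 4 of the 10 remained past the size rule, namely Map7d1, Actr3, Map2 and Kif24. Without the first part 11 members, or 23.4%, were lower in NBL past the rule, against 14.3% of all genes.

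The comparison of OL with O asks the same of Tomato cells. The 3 alpha tubulins were higher in OL, Tuba1b by 3.20, Tuba1a by 2.51 and Tuba1c by 2.39, with Stmn4 (2.32) and Map1b (2.08). These were 5 members, or 10.6%, against 8.36% of all genes. Tuba1b and Tuba1c had the populations apart (2 members, or 4.26%, against 3.86% of all genes). As these alpha tubulins share most of their sequence, their differences are not 3 separate observations. Lower in OL were Arpc5 (by -7.49), Map7 (-3.54), Dctn4 (-2.81), Actr1a (-2.47) and Dynlrb1, a dynein light chain (-2.29). These were 5 members, or 10.6%, against 7.92%. Arpc5, Dctn4 and Dynlrb1 had the populations apart (3 members, or 6.38%, against 2.51%). The difference of Arpc5 was the only one of the 10 that exceeded both SDs. The median difference was 0.04 over the members and -0.10 over all genes. The mature oligodendrocyte markers differed between these populations too, with the medians given above, and their part in these differences was not tested. Without the first part by cell number Map1b and Stmn4 were under the rule, and without the last part Dctn4 and Tuba1a.

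OligNBL was set against NBL, which has the lesion label and the GFP reporter in common with it but not the strain. Here 14 of 47 members were higher in OligNBL by at least 2, or 29.8%, against 12.2% of all genes: Dync1li2 (4.57), Map1b (3.74), Actr8 (3.69), Stmn4 (3.36), Map4 (3.28), Kif5c (3.07), Tubb2a (3.03), Actg1 (2.93), Atat1 (2.58), Actb (2.49), Tubb5 (2.44), Klc1 (2.43), Tubb2b (2.42) and Tuba1b (2.34). They take in 3 of 4 beta tubulins, both actins and both kinesin-1 subunits named above. The populations were apart for 7 of them (14.9% of members), Dync1li2, Actr8, Map4, Kif5c, Tubb2a, Actb and Klc1, against 9.73% of all genes. Lower were Map7d1 (-6.63), Stmn1 (-5.06), Actr3 (-3.71) and Arpc5 (-3.68), 4 members, or 8.51%, against 10.3%. All but Actr3 had the populations apart (3 members, or 6.38%, against 5.79%). The medians were 0.20 over the members and 0.04 over all genes. Only the differences of Map7d1, Stmn1, Actr8 and Dync1li2 exceeded both SDs. Without the first part by cell number, 9 members, or 19.1%, were higher past the rule against 13.6% of all genes, and Actb, Actg1, Arpc5, Kif5c, Tubb2b and Tubb5 were under it. Without the last part Stmn4 and Tuba1b were under it.

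OligNBL was also set against OL, which has the lesion label and the Tomato reporter in common with it. The OligNBL cells enter both comparisons, and every population enters 2 of the 5, so the comparisons are not independent of each other. In OligNBL 13 members were higher, or 27.7%, against 13.2% of all genes. They were led by Map1b (7.29), Actg1 (7.01), Tubb2b (5.44), Atat1 (4.08), Dync1li2 (4.08) and Tubb2a (3.51). Those 6 and Kif5c (3.27) and Klc1 (3.16) had the populations apart, 8 members against 11.1%. Tubb5, Actr8, Stmn4, Arpc5l and Tuba1a made up the rest. Lower in OligNBL were Tubb4a (-8.08), Stmn1 (-4.20), Actr1a (-2.61), Kif4 (-2.40), Kif22 (-2.37) and Kif1b (-2.16), 6 members, or 12.8%, against 12.2%. Tubb4a, Actr1a, Kif4 and Kif1b had the populations apart (4 members, or 8.51%, against 7.42%). The members' median was 0.71 and that of all genes 0.13. The differences of Map1b, Actg1, Tubb2b, Atat1, Klc1 and Tubb4a exceeded both SDs. The median OL cell was at 0.00 for Actr1a, Kif4 and Kif22, so these differences rest on a minority of OL cells. Without the first part by cell number Arpc5l, Kif1b, Kif5c and Tuba1a were under the rule, and without the last part Actr1a, Stmn4 and Tuba1a.

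O was set against NB, the comparison of healthy Tomato with healthy GFP cells. Higher in O were Tubb4a (5.59), Actr1a (5.09), Map7 (4.11), Dctn4 (3.48), Arpc5 (3.47), Actr10 (3.08) and Actb (2.96). These were 7 members, or 14.9%, against 12.3% of all genes. All but Arpc5 and Actb had the populations apart (5 members, or 10.6%, against 11% of all genes). Lower in O were 12 members, or 25.5%, against 13.5% of all genes. Among them were Map2 (-6.03), Tuba1a (-5.10), Tubb5 (-4.73), Tuba1b (-4.70), Stmn4 (-4.51), Map1b (-4.44), Stmn1 (-3.86), Kif24 (-3.51), Arpc5l (-3.01), Tubb2b (-2.25) and Kif21a (-2.13). All but Tubb5, Tuba1b and Stmn1 had the populations apart, 9 members, or 19.1%, against 11.8%. The members' median was -0.33 and that of all genes 0.09. In this comparison 8 of the 19 differences exceeded both SDs: those of Tubb4a, Actr1a, Actr10, Map2, Tuba1a, Tubb5, Stmn4 and Map1b. Without the last part by cell number Actb, Dctn4 and Tubb2b were under the rule.

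**Figure D4:**
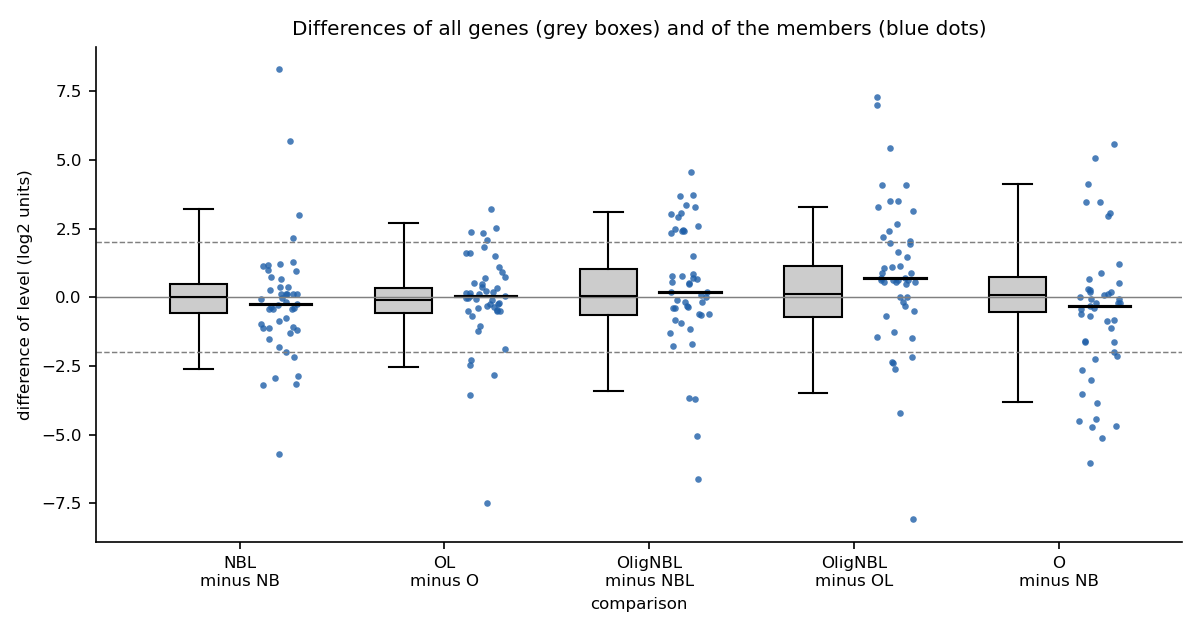
Difference of level (vertical axis, log2 units) in the 5 comparisons for all 3422 genes (grey boxes with median and quartiles, whiskers at the 5th and 95th percentiles) and for the 47 members (blue dots, black line at their median); dashed lines mark the size rule of 2. The members' median was 0.71 for OligNBL minus OL and between -0.33 and 0.20 for the other comparisons.

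Many genes of the table are near 0 in most cells, and 15 to 26 of the 47 members, against 49.7% to 59.8% of all genes, had a level under 1 in a given population.

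Other genes of the cytoskeleton were read from a list of actin regulators, 28 of 52 measured, and a list of microtubule regulators, 28 of 55 measured, in which Tubb3 and Stmn2 were included. In NBL against NB, 5 actin regulators (17.9%) were higher and 2 (7.14%) lower, beside 9.76% and 8.39% of all genes: the myristoylated actin-binding protein Marcksl1 stood at 7.63 ± 4.59 in NBL and 1.66 ± 3.07 in NB, and the depolymerising factor Cfl1 at 7.20 ± 5.93 and 4.07 ± 4.16. Of the microtubule regulators 4 (14.3%) were higher and 4 lower. Tubb3, the neuronal beta tubulin, stood at 5.57 ± 4.72 in NBL and 1.56 ± 2.32 in NB, and Stmn2 at 0.76 ± 1.51 and 5.17 ± 4.77. The 2 neuronal genes that the rule left out thus had opposite directions. In OL against O, 4 actin regulators (14.3%) were higher and 4 lower, and 4 microtubule regulators (14.3%) were higher and 1 (3.57%) lower, beside 8.36% and 7.92% of all genes. The filament-severing gelsolin, Gsn, stood at 6.72 ± 4.95 in OL and 11.04 ± 3.67 in O.

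In OligNBL against NBL, 4 actin regulators (14.3%) were higher and 2 (7.14%) lower, and 7 microtubule regulators (25%) were higher and 3 (10.7%) lower, beside 12.2% and 10.3% of all genes. All but the 25% lay near the shares of all genes. The actin-sequestering Tmsb4x stood at 6.19 ± 5.54 in OligNBL and 0.74 ± 1.30 in NBL, and Tubb3 at 8.81 ± 4.07 and 5.57 ± 4.72. Dpysl3, which binds tubulin in growth cones, had the other direction, at 4.32 ± 3.44 in OligNBL and 8.25 ± 4.48 in NBL. In OligNBL against OL, 7 actin (25%) and 8 microtubule regulators (28.6%) were higher and 2 of each (7.14%) lower, beside 13.2% and 12.2% of all genes, with list medians of 0.77 and 0.69 beside 0.13 over all genes. In O against NB, 4 actin regulators (14.3%) were higher and 3 (10.7%) lower, while 2 microtubule regulators (7.14%) were higher and 9 (32.1%) lower, beside 12.3% and 13.5% of all genes. The list median of the microtubule regulators was -0.70 there. The 9 were Stmn2, Tcp1, Mapt, Dcx, Crmp1, Dclk1, Dpysl3, Cct7 and Mapre2, which take in neuronal microtubule binders and subunits of the chaperonin that folds tubulin and actin. Of these, Mapt, which encodes tau, stood at 1.06 ± 1.88 in O and 5.15 ± 3.37 in NB.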

How the data were processed

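Per the labels' protocols, live single cells were sorted by reporter fluorescence into plates and their polyadenylated RNA was amplified by SMART-Seq2. Per the submitters' processing notes, the authors used kallisto and limma with GRCm38, and the sources used here give no version of either tool. The authors deposited a table named as estimated counts, whose values behaved as a normalized signal: column totals ran from 5155899 to 5161091, and the highest value over all cells was 1192295. Depth cannot be read from it, no count model was used. The sources used here do not say how the 3422 genes were chosen.

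Levels were means of log2(signal + 1), with a pseudocount of 1, over all cells, grouped by the labels. Presence among the 500 highest genes left out 2 NB cells with fewer genes above their lowest value. No doublet caller was run, and every cell entered the levels. As each population is 1 sample, no test was made. Members, lists, comparisons and the rule for named genes were chosen with earlier results of these data known. Named were, in each comparison, the 6 members each way with the largest difference of at least 2, members past 2 with the populations apart, and a fixed set of tubulins, actins, stathmins, associated proteins and motors; others are named where a count or family is listed. Of the members, 1 is counted but not reported by name here. Alternatives covered the pseudocount, early cell numbers, cells with at least 1000 genes, the median over cells, a minimum mean level, leaving out parts of the cells, and the definition of presence. The level step was tested on simulated data. Positions and sequences come from GENCODE vM21 on GRCm38, in which all 47 members were matched. The tools were matplotlib 3.10.9, scipy 1.17.1, pandas 2.3.3 and numpy 2.4.6 under Python 3.11.15.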

Additional observations from a re-analysis of the deposited data

Results flagged for a closer look

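Stmn4 and Tuba1b had opposite directions in the lesion comparisons of the GFP and the Tomato cells. Stmn4 was lower in NBL than in NB (-3.14) and higher in OL than in O (2.32). Tuba1b was lower in NBL than in NB (-2.95) and higher in OL than in O (3.20). These 2 of 47 members, or 4.26%, were past the size rule with opposite signs, against 1.14% of all genes, and no member was past it with the same sign in both, against 1.11% of all genes. Without the last part of the cells by cell number, both genes were under the rule in NBL minus NB, so that neither opposite pair remained. Stmn4 was under it in OL minus O without the first part and with a pseudocount of 10. The difference between the lineages was not tested, since each population is 1 sample. For Stmn4 NB and NBL were apart by their part means and OL and O were not, and for Tuba1b OL and O were apart and NB and NBL were not. Tuba1b shares 86.0% of its 31-base words with other transcripts, so reads of its copies are part of this uncertainty.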

How the results depend on the processing

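Counts of members past the size rule and medians over the members moved with the setting, and no member past the rule took the opposite sign past it. With a pseudocount of 10, which makes differences of low genes smaller, 11 of 19 differences between OligNBL and OL were under the rule. The members past it were then 2 higher in NBL than NB (4.26%, against 5.49% of all genes), 2 higher and 2 lower in OL than O (4.26% each, against 3.45% and 3.92%), 6 higher in OligNBL than NBL (12.8%, against 4.27%), and 6 higher and 2 lower in OligNBL than OL (12.8% and 4.26%, against 4.88% and 5.52%), and the NBL minus NB median was -0.12. With the median over cells, OL had 3 higher and 3 lower than O (6.38% each, against 5.96% and 6.52% of all genes), and O had 4 higher than NB (8.51%, against 7.98%). The median difference over the members was then 0.00 in every comparison, as was that over all genes. Among genes with a mean level of at least 2, fewer members could be counted, and some passed only through the population where they are high, so the values support nothing about the members: 1 was lower in OL than O, 9 were higher in OligNBL than NBL, 8 higher and 2 lower in OligNBL than OL, and 4 higher in O than NB. The medians there were -0.44 for NBL minus NB, 0.33 for OL minus O, 0.79 for OligNBL minus NBL, 1.67 for OligNBL minus OL and -0.86 for O minus NB. Without the first part by cell number, 11 members were lower in NBL than NB (23.4%, against 14.3% of all genes) and 9 higher in OligNBL than NBL (19.1%, against 13.6%), and the medians were -0.041 for NBL minus NB, -0.075 for OL minus O and -0.086 for O minus NB. Without the last part, 2 members were higher in NBL than NB (4.26%, against 6.40%) and the median was -0.09. Without early cell numbers (up to 21) the NBL minus NB median was 0.00. Apart from the smaller set of genes, the cause was not tested. Shares of cells depend on the definition of presence: counting any value above 0 moved 62.9% of the shares beyond their interval and the 300 highest genes moved 35.2%. In 1 NB cell all 3422 genes had a value above 0; leaving it out, a choice made after seeing the data, kept every member past the rule. No paired analysis was possible because no test was made and the cell numbers in the titles name cells, not animals. Depth is not readable from the normalized signal, so a gene listed at 0 is not shown to be absent.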
